A study of Rattus norvegicus with 10 samples.

Results

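The genes described here make GABA, the main inhibitory transmitter of the adult brain, or build the receptor it opens. They are the glutamate decarboxylases Gad1 and Gad2 and the GABA-A receptor subunits Gabra2, Gabra4, Gabra5, Gabrb1 and Gabrd. They were taken by gene symbol as every probe set that the platform annotation assigns to 1 of these 7 genes and to no other gene, which gave 10 of the 31042 probe sets tested. RNA came from the right side of the brain, cut at the midline, of male Wistar rats aged 7 weeks, 1 rat per array. The 5 DMHF rats breathed for 5 min the vapor over 5 mL of DMHF, a furanone with the smell of strawberries, and the 5 control rats the vapor over 5 mL of distilled water. Rats of both groups were killed 10 min after that, shortly before their dark period. The comparison asks which brain transcripts differ soon after the odor is inhaled.

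Glutamate decarboxylase turns glutamate into GABA. The enzyme of Gad1 fills the cell body and sustains most of the GABA of the brain, while that of Gad2 sits mainly at nerve endings. GABA-A receptors are chloride channels assembled from several subunits, commonly alpha and beta subunits with a gamma or delta subunit, and the alpha subunit sets much of their place and drug response. Receptors with the delta subunit lie outside synapses, where they respond to ambient GABA, and in the forebrain they often contain the Gabra4 subunit.

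In the RefSeq gene table of assembly GRCr8, all 7 symbols are current. Among its protein-coding genes, Gabrb1, Gabra4 and Gabra2 follow each other on chromosome 14 with only Cox7b2, a subunit of cytochrome oxidase, between the last pair. RefSeq start windows were found for 6 of the 7 genes, and for 3 of them, Gad2, Gabra4 and Gabrd, the window begins at the annotated start of the gene. The 250 bases before that start are given for these 3 because Gabrd had the largest differences in units of its spread among the members, Gabra4 differed most between the groups in spread, and Gad2 stands for synthesis. They are chr17:89671468-89671717 on the plus strand for Gad2, chr14:36944497-36944746 on the plus strand for Gabra4 and chr5:171252710-171252959 on the minus strand for Gabrd, each in GRCr8 and written toward the gene.
Gad2: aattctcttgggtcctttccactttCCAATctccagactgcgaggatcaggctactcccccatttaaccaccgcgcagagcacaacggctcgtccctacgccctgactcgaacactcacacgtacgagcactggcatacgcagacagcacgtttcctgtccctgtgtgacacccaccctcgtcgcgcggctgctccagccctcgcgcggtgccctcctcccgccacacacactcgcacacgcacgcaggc
Gabra4: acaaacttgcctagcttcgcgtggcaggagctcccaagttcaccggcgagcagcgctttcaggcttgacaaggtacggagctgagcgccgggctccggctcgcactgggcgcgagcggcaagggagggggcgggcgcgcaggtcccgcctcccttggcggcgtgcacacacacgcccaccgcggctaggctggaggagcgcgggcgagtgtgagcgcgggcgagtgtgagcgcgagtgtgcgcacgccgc
Gabrd: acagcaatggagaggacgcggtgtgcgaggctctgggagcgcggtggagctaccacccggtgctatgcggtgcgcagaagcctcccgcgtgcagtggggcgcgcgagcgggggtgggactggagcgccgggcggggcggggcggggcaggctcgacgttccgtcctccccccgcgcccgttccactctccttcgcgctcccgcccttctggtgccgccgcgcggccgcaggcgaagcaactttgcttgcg
Capitals mark a match to any of 5 motifs searched on both strands. A CCAAT box (CCAAT) occurred in Gad2 alone and is held by 34.0% of all 33469 such windows. None of the 3 windows held a TATA box (TATAAA, 12.9% of windows), a cyclic AMP response element (TGACGTCA, 1.59%), an EGR site (GCGGGGGCG, 2.45%) or an E-box (CACGTG, 5.59%). All 3 are rich in G and C, at 62.0% for Gad2, 71.6% for Gabra4 and 74.0% for Gabrd, against a median of 51.2% over all windows. They hold 22, 33 and 35 CpG dinucleotides in that order, where the median window holds 5.00. These letters describe the genes, and no factor binding was measured.

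The deposited values lay between 5.25 and 14.22 and were read as log2 expression. Array medians lay at 7.24, and all 10 member probe sets had means above that. Of the neuronal marker probe sets 12 of 13 lay above it too, as did 9 of 10 of those for GABAergic neurons. Other marker lists varied, from 10 of 10 for oligodendrocytes to 0 of 5 for ependyma. No other tissue was measured, so these counts do not test the label of the tissue. Differences between arrays were minute: over the 10 arrays the median probe set had an SD of 2.20 millionths of a log2 unit. The medians of the arrays spanned 15.2 millionths of a log2 unit, more than that SD. Differences are therefore given in millionths of a log2 unit from the mean of the control rats, called millionths below. They give no fold change of RNA and are not comparable between probe sets, so each is also given in units of the within-group SD of its own probe set. In a piece of whole tissue, fewer cells of a type and less RNA per cell cannot be told apart.

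None of the genes for GABA synthesis or GABA-A subunits passed the test between DMHF and control rats. The delta subunit Gabrd came closest, with a positive difference on all 3 of its probe sets of about 1 within-group SD. Gabra2 and Gabra4 had negative differences, Gabrb1 a positive one, and Gabra5 and Gad2 lay next to 0. The 2 probe sets of Gad1 went opposite ways. By limma 0 of 10 member probe sets passed at an adjusted p under 0.05, where 0% of all probe sets did and the smallest adjusted p of any was 0.698. At an unadjusted p under 0.05 there were 0 of 10 by limma, against 5.48% of all probe sets (3.23% higher and 2.25% lower in DMHF), and 0 of 10 by the exact permutation test, against 5.13%. The values of the DMHF and control rats overlapped for all 10, and 0.867% of all probe sets had groups that did not overlap. Differences were positive for 7 and negative for 3 of the 10 (6 and 4 with every array shifted to a common median), and 53.2% of all probe sets had a positive difference. The median moderated t of the members was 0.42 and that of all probe sets 0.08.

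**Figure D1:**
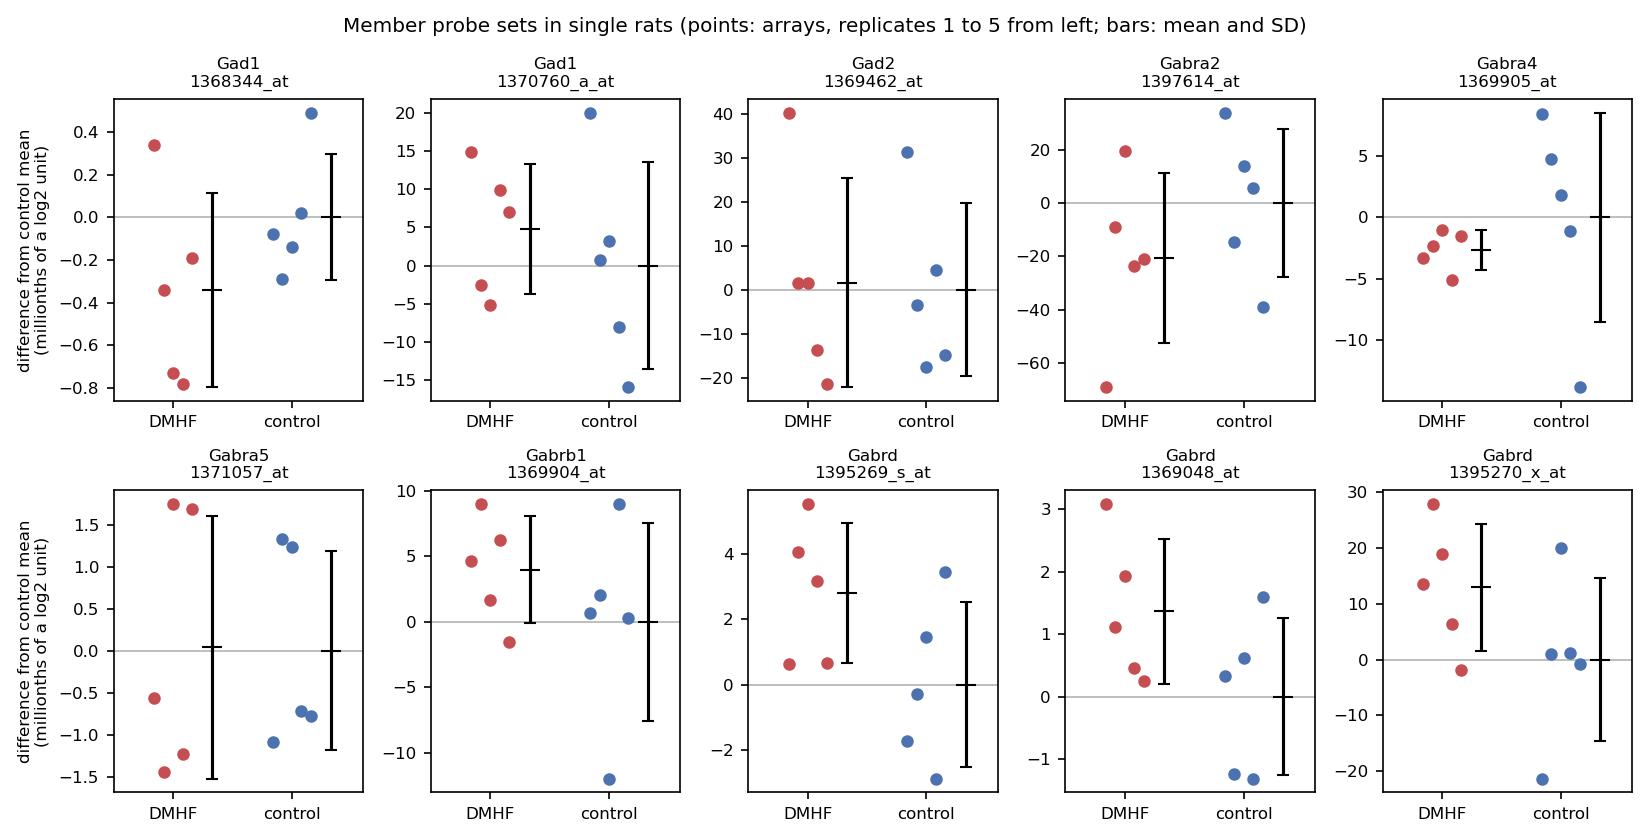
Each panel plots 1 member probe set, with the 5 DMHF rats on the left and the 5 control rats on the right, as the difference from the control mean in millionths of a log2 unit. Bars give the mean and SD of each group, and the scale differs between panels. The groups overlap in every panel, and the DMHF rats of Gabra4 lie close together inside the range of the control rats.

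Gad1, the decarboxylase that makes most brain GABA, was measured by the probe sets 1368344_at and 1370760_a_at. On 1368344_at the DMHF rats, in replicate order, stood at 0.340, -0.340, -0.730, -0.780 and -0.190 millionths, and the control rats at -0.0800, -0.290, -0.140, 0.0200 and 0.490. Thus 3 DMHF rats lay below all control rats and the other 2 lay within the control range. The difference was -0.340 millionths (SE 0.314, 95% interval -1.05 to 0.373), or -0.885 within-group SD, with a limma adjusted p of 0.997. On 1370760_a_at the DMHF rats stood at 14.9, -2.59, -5.16, 9.92 and 6.96 millionths and the control rats at 20.0, 0.728, 3.21, -8.06 and -15.9. Here all 5 DMHF rats lay within the range of the control rats. The difference had the other sign, 4.81 millionths (SE 6.79, 95% interval -10.6 to 20.2), or 0.427 SD, with a limma adjusted p of 1.0.

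Gad2, the decarboxylase of nerve endings, had 1 probe set, 1369462_at. The DMHF rats stood at 40.3, 1.52, 1.6, -13.8 and -21.4 millionths and the control rats at 31.4, -3.51, -17.5, 4.58 and -14.9. In each group replicate 1 was the highest, and the spread within the groups, with an SD of 23.8 millionths in DMHF and 19.7 in control rats, was far larger than the difference between them. That difference was 1.62 millionths (SE 13.1, 95% interval -28.2 to 31.4), or 0.0742 within-group SD, with a limma adjusted p of 1.0. With single arrays left out it ran from -8.04 to 9.46 millionths and changed sign in 3 of 10 fits.

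Gabra2 encodes an alpha subunit of forebrain synapses and of the start of the axon of principal neurons. Its probe set 1397614_at stood at -69.2, -8.82, 19.6, -23.6 and -21.1 millionths in DMHF rats and at 34.0, -14.6, 14, 5.69 and -39.0 in control rats. DMHF replicate 1 lay below all control rats, and the other 4 DMHF rats lay within their range. The difference was -20.6 millionths (SE 18.1, 95% interval -61.7 to 20.4), or -0.686 within-group SD, with a limma adjusted p of 0.995. Without DMHF replicate 1 or any other single array it stayed negative, between -30.7 and -8.49.

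Gabra4 encodes the alpha subunit that often accompanies the delta subunit outside synapses. Its probe set 1369905_at stood at -3.34, -2.36, -1.05, -5.08 and -1.54 millionths in DMHF rats and at 8.38, 4.74, 1.83, -1.10 and -13.8 in control rats. All 5 DMHF rats lay below the control mean but within the control range. The difference was -2.68 millionths (SE 3.69, 95% interval -11.0 to 5.69), or -0.437 within-group SD, with a limma adjusted p of 1.0. The SD was 1.6 millionths among DMHF rats and 8.50 among control rats, 5.31 times as large in the control rats. Gabra4 was singled out for this after its values were seen, and the difference in spread was not tested. Leaving out control replicate 5, the lowest control rat, gave -6.14 millionths with an unadjusted limma p of 0.0112, the smallest over the arrays left out. Without that array, 970 higher and 874 lower of all 31042 probe sets had an unadjusted limma p under 0.05. Over all single arrays left out the difference ran from -6.14 to -0.580.

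Gabra5 encodes an alpha subunit concentrated in the hippocampus, where much of it lies outside synapses. Its probe set 1371057_at stood at -0.556, -1.44, 1.75, -1.23 and 1.69 millionths in DMHF rats and at -1.08, 1.34, 1.24, -0.721 and -0.774 in control rats. Values above and below the control mean occurred in both groups. The difference was 0.0432 millionths (SE 0.861, 95% interval -1.91 to 2.00), or 0.0311 within-group SD, with a limma adjusted p of 1.0. Its sign changed in 5 of 10 fits with a single array left out.

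Gabrb1 encodes a beta subunit, which with alpha subunits forms the GABA binding site. Its probe set 1369904_at stood at 4.66, 8.98, 1.67, 6.25 and -1.57 millionths in DMHF rats and at 0.698, 2.06, -12.0, 9.0 and 0.258 in control rats. All 5 DMHF rats lay within the control range, and 4 of them lay above the control mean. The difference was 4.0 millionths (SE 3.67, 95% interval -4.33 to 12.3), or 0.656 within-group SD, with a limma adjusted p of 0.997. Control replicate 3 was the lowest rat, and with single arrays left out the difference ran from 0.993 to 6.25.

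Gabrd, the delta subunit, was measured by 3 probe sets, of which 1395269_s_at and 1395270_x_at were designed on the same expressed sequence tag and are no independent measures of the gene. On 1395269_s_at the DMHF rats stood at 0.625, 4.07, 5.54, 3.19 and 0.657 millionths and the control rats at -1.72, -0.294, 1.46, -2.89 and 3.45. All 5 DMHF rats lay above the control mean and 2 above every control rat. The difference was 2.82 millionths (SE 1.43, 95% interval -0.422 to 6.05), or 1.20 within-group SD, with an unadjusted limma p of 0.0805, an adjusted p of 0.931 and an exact permutation p of 0.111 (adjusted over all probe sets, 0.939).

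On the probe set 1369048_at, annotated to a RefSeq transcript of Gabrd, the DMHF rats stood at 3.08, 1.12, 1.93, 0.465 and 0.245 millionths and the control rats at 0.338, -1.24, 0.624, -1.31 and 1.59. Again all 5 DMHF rats lay above the control mean and 2 above every control rat. The difference was 1.37 millionths (SE 0.757, 95% interval -0.349 to 3.09), or 1.13 SD, with an adjusted limma p of 0.942. On 1395270_x_at the DMHF rats stood at 13.5, 27.9, 19.0, 6.44 and -1.84 millionths and the control rats at -21.4, 1.0, 20.0, 1.25 and -0.889. Here 1 DMHF rat lay above every control rat, and control replicates 1 and 3 were the lowest and highest control rats. The difference was 13.0 millionths (SE 7.91, 95% interval -4.95 to 31.0), or 0.989 SD, with an adjusted limma p of 0.951. The 3 Gabrd differences stayed positive with any single array left out, from 2.09 to 3.68, from 0.941 to 1.77 and from 7.66 to 18.0 millionths in the order given. With each of the 10 arrays left out in turn, the unadjusted limma p of these 3 probe sets was under 0.05 in 3 cases. Without control replicate 5 it was 0.0237 for 1395269_s_at and 0.0443 for 1369048_at. Without control replicate 3 it was 0.0359 for 1395270_x_at. Of all 31042 probe sets, 970 higher and 874 lower had such a p without control replicate 5, and 1055 and 745 without control replicate 3. With every array shifted to a common median the Gabrd differences were 2.77, 1.32 and 13 millionths, with an unadjusted limma p of 0.471, 0.689 and 0.162 in the same order.

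A difference over 1 within-group SD in size occurred in 2 of the 10 member probe sets, both of Gabrd, and in 16.2% of all probe sets. The intervals are wide on that scale. They rest on limma's SE, which draws on all probe sets and can exceed what a probe set of small SD would give alone. Gad1 on 1368344_at, with a within-group SD of 0.384 millionths and an SE of 0.314, is such a case. For Gabrd the intervals ran from -0.180 to 2.58 SD on 1395269_s_at, from -0.289 to 2.56 on 1369048_at and from -0.376 to 2.35 on 1395270_x_at. For Gad2 the interval was -1.29 to 1.44 SD, for Gabra5 -1.38 to 1.44 and for Gad1 on 1368344_at -2.74 to 0.970. A shift of 1 within-group SD in either direction was therefore within the interval of Gad2 and Gabra5, and these data do not show that the groups are alike.

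**Figure D2:**
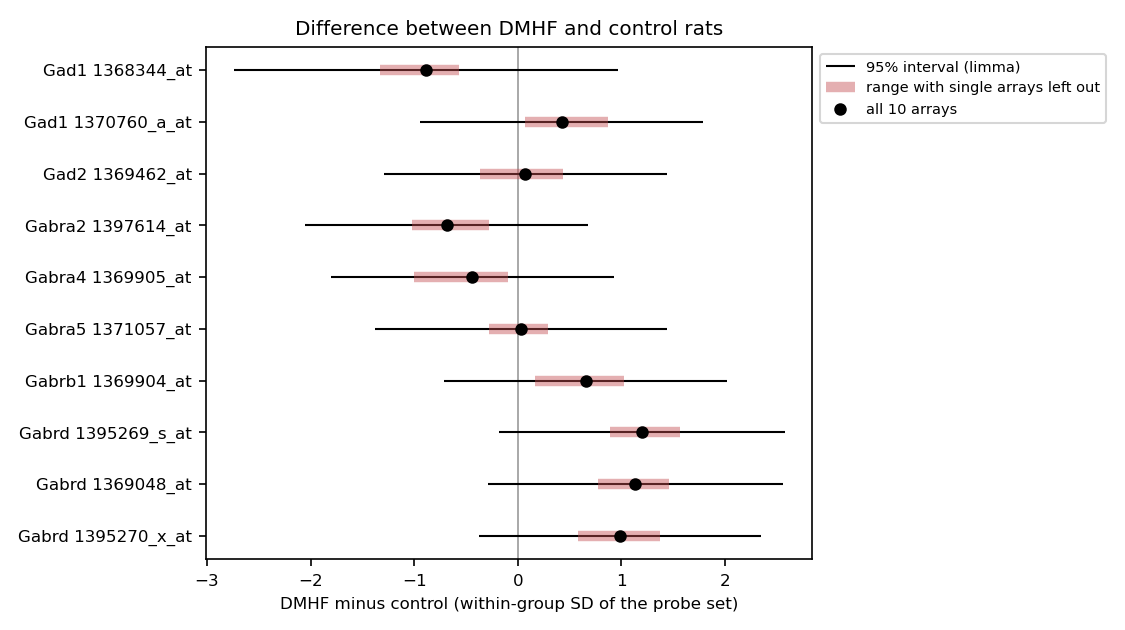
The difference of DMHF minus control is plotted for each member probe set in units of its own within-group SD, as a point for all 10 arrays, a thin line for the 95% interval from limma and a thick band for the range with single arrays left out. All 10 intervals include 0, and the 3 Gabrd probe sets lie farthest to the right, at 0.989 to 1.20.

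Over single rats no pair of members passed as correlated. Deviations from the group means were correlated between all 45 pairs of member probe sets over the 10 arrays, each with an exact two-sided permutation test over the 14400 orders within groups. Pearson's r was positive for 19 pairs and negative for 26, with a median of -0.08. Of the 45 pairs 3 had an unadjusted p under 0.05 by Pearson's r and 0 by Spearman's rho, and 0 passed after adjustment (smallest adjusted p 0.609 for r and 1.0 for rho). The labels name no batches, so no values within batches can be given.

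Probe sets of the same gene did not pass as correlated either. The 2 probe sets of Gad1 had an r of -0.04 (exact permutation p = 0.902) and a rho of -0.07 (p = 0.868) over the 10 arrays, and r was 0.03 without the 2 arrays farthest from the median. For Gabrd the probe sets 1395269_s_at and 1395270_x_at had an r of 0.50 (exact permutation p = 0.179) and a rho of 0.33 (p = 0.387), and r was 0.71 without the 2 farthest arrays. With 1369048_at they had an r of 0.42 (p = 0.258, rho 0.45, p = 0.230) and 0.19 (p = 0.629, rho 0.09, p = 0.830) by the same exact tests. Without the 2 farthest arrays these were 0.02 and 0.30. Adjusted p for r in these 4 pairs lay between 0.859 and 0.943.

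Among different genes, Gad1 on 1368344_at and Gabra2 had an r of -0.72 (exact permutation p = 0.0341, adjusted 0.609) and a rho of -0.49 (p = 0.197). Without the 2 farthest arrays, chosen by Gad1 alone, r was -0.07, so the relation was not seen in the remaining arrays. Gabra5 and Gabrb1 had an r of -0.64 (exact permutation p = 0.0360, adjusted 0.609) and a rho of -0.64 (p = 0.0699), with -0.58 after leaving out the 2 farthest arrays. Of the chromosome 14 neighbors, Gabra2 and Gabra4 had an r of 0.60 (exact permutation p = 0.0406, adjusted 0.609) and a rho of 0.55 (p = 0.106), with 0.34 after leaving out 2 arrays. Gabra4 and Gabrb1, next to each other among protein-coding genes, had an r of -0.11 (exact permutation p = 0.814, adjusted 0.931) and a rho of -0.28 (p = 0.482), with -0.36 after leaving out 2 arrays. Gad1 and Gad2 had an r of 0.35 on 1368344_at (exact permutation p = 0.388, adjusted 0.892, rho 0.22, p = 0.591) and of 0.52 on 1370760_a_at (p = 0.133, adjusted 0.748, rho 0.15, p = 0.689). Without the 2 farthest arrays these were 0.04 and 0.17.

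**Figure D3:**
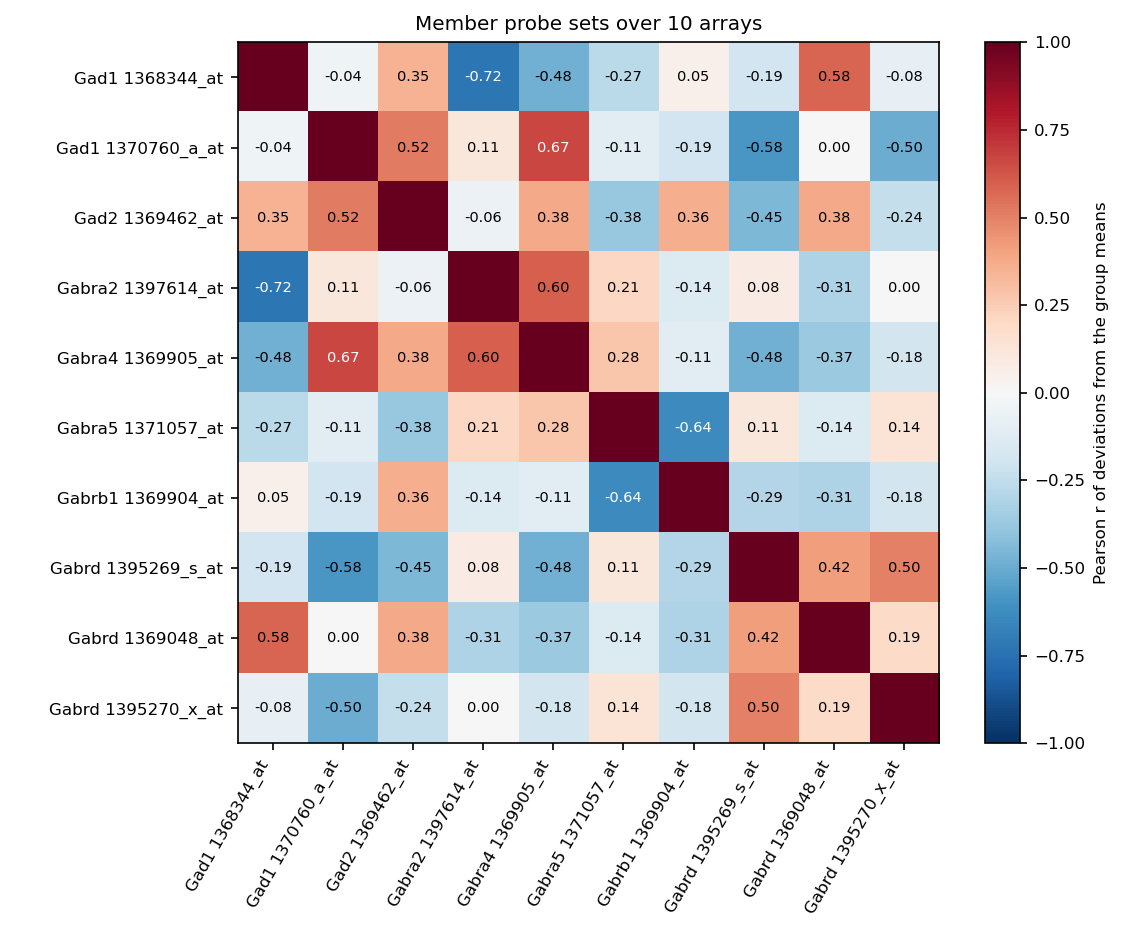
Pearson's r between the deviations of member probe sets from their group means over 10 arrays, red for positive and blue for negative. Rows and columns follow the same order, and no block of red joins the subunits or the decarboxylases: r is -0.04 between the Gad1 probe sets and -0.72 at its lowest.

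The transcripts whose deviations over the 10 arrays were most like those of a member are named as a description only. For each member they had the highest r among the 20566 probe sets of named genes compared, so a high r is partly a result of that selection. Whether unrelated probe sets would reach such values over 10 arrays was not tested, and no co-expression is concluded from them. Probe sets of the same member gene had an r of only -0.04 to 0.50. Stk35, Kctd5 and Zfp644 each had an r of 0.96 with Gad1 on 1368344_at. With Gad2, Capzb had an r of 0.95 and Ighl2 and Slc66a1 of 0.92. With Gabra2, Kcnj6, Gria3 and Dlgap2 each had an r of 0.94, and with Gabra4, Psmb7, Tmem30a and Uggt1 each had 0.96. Orc3 (0.95), Sync (0.94) and Fam131a (0.93) came first for Gabra5, and Gxylt1 (0.92), Spata31 (0.92) and Ptpn4 (0.91) for Gabrb1. For Gabrd on 1395269_s_at they were Pum3 (0.96), Porcn (0.95) and Tmem214 (0.95). No member of the GABA system lists described next was among these 21 genes.

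The wider GABA system was described through 7 lists with 49 measured genes and 78 probe sets. Of these, 47 probe sets had positive and 31 negative differences, 0 passed limma's adjusted threshold, and 5 had an unadjusted p under 0.05, all positive. That is 6.41% of the 78, where 5.48% of all probe sets had such a p and 3.23% with a positive difference. At any p, 53.2% of all probe sets had a positive difference. The count of 5 fell to 2 with a common array median and to 0 after quantile normalization. Array medians spanned 15.2 millionths, so the shift to a common median alters the spread within groups. The fall alone therefore does not show smaller differences. Quantile normalization left only part of the 78 to test, among them 9 of 17 probe sets of other receptor subunits and 3 of 19 for clustering and trafficking. By the exact permutation test 7 of the 78 had an unadjusted p under 0.05, 6 positive and 1 negative, where 5.13% of all probe sets did. They were the same 5, Ubqln1 and, with the negative difference, Gphn. Of the 5 by limma, 3 belonged to other receptor subunits (2 of them to Gabrr2) and 2 to clustering and trafficking.

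Other GABA-A subunits and the rho subunits, known best from GABA-C receptors of the retina, had 17 probe sets of 11 genes. Of these 14 had positive differences, where 53.2% of all probe sets did, and the median moderated t was 0.94. By limma 3 had an unadjusted p under 0.05 in the positive direction, where 3.23% of all probe sets did, and 0 passed adjustment. These 3 were 2 probe sets of Gabrr2 and 1 of Gabre, so they are not 3 separate genes. The smallest p belonged to Gabrr2, a rho subunit, on 1369230_at. Its DMHF rats stood at 2.93, 5.30, 3.89, 4.21 and 5.65 millionths and its control rats at -2.55, 1.13, -0.947, 2.09 and 0.279, so that each DMHF rat exceeded each control rat. The difference was 4.4 millionths (SE 0.926), or 2.94 within-group SD, with a limma adjusted p of 0.698. Its unadjusted exact permutation p was 0.00794, the smallest that 5 against 5 arrays allow. Of all probe sets 0.867% had groups that did not overlap, and the smallest adjusted exact permutation p of any was 0.915.

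On the second Gabrr2 probe set, 1369231_at, the DMHF rats stood at 2.79, 9.15, 3.58, 4.43 and 5.16 millionths and the control rats at 0.00320, -1.38, 3.99, -0.00480 and -2.61. Here 3 DMHF rats lay above every control rat. The difference was 5.02 millionths (SE 1.51), or 2.03 SD, with a limma adjusted p of 0.814. With a common array median 0 of the 17 probe sets of this list had an unadjusted limma p under 0.05, while 14 differences were still positive. There Gabrr2 differed by 4.35 millionths on 1369230_at and by 4.98 on 1369231_at, close to the values above. Its unadjusted limma p was then 0.182 and 0.142. Gabre, the epsilon subunit, differed by 1.34 millionths (SE 0.464, limma adjusted p = 0.868) on 1369383_a_at and by 2.08 (SE 1.29, adjusted p = 0.954) on 1388049_a_at. Gabrg3, a gamma subunit, differed by 1.05 (SE 0.533, adjusted p = 0.931). The means of these probe sets, 6.08 to 6.49, lay below the array median of 7.24, as did those of 12 of the 17 in this list. By contrast all 10 member probe sets lay above it. Whether probe sets this dim measure a brain transcript was not tested.

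GABA-B receptors, which act through G proteins, and their Kctd partners had 7 of 10 probe sets with positive differences (median t 0.59) and 0 at an unadjusted p under 0.05 by limma. Gabbr1 was positive on 4 of its 5 probe sets, from 0.120 to 12.7 millionths, and stood at -760 (SE 4305) on 1388030_a_at. Its smallest adjusted limma p was 0.931. Kctd12 differed by 2.12 (SE 2.15) and 0.0840 (SE 0.271) and Kctd16 by 1.19 (SE 1.32) millionths. In the list for transport and breakdown, 5 of 9 probe sets were positive (median t 0.78), again with 0 under 0.05. Aldh5a1, which clears a breakdown product of GABA, differed by 3.79 (SE 1.77) and 1.65 (SE 1.12) millionths but by -0.636 (SE 2.04) on 1379900_at. Slc6a11, a GABA transporter of astrocytes, differed by 4.4 (SE 2.60), and Slc32a1, which loads GABA into vesicles, by 0.984 (SE 0.908). Each had a limma adjusted p of at least 0.931.

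The supply of glutamine and glutamate had 6 of 11 probe sets positive (median t 0.21) and 0 under 0.05 by limma. Its smallest p values belonged to Slc38a1, a glutamine transporter of GABAergic neurons, at 0.630 millionths (SE 0.345, with -4.15 and 2.41 on its other probe sets). Slc1a1, a neuronal glutamate transporter, stood at -1.50 (SE 0.909), and Glul, the glutamine synthetase of astrocytes, at 1.53 (SE 1.29, with 8.03 and -0.848 on its other probe sets). Clustering and trafficking had 8 of 19 positive (median t -0.10), with 2 under 0.05. These were Hap1, which helps return GABA-A receptors to the surface, at 10.3 millionths (SE 3.20, limma adjusted p = 0.824), and Clptm1, which holds GABA-A receptors back inside the cell, at 7.44 (SE 2.47, adjusted p = 0.868). Gphn, gephyrin, the scaffold of inhibitory synapses, stood at -0.658 (SE 0.326, limma adjusted p = 0.931, unadjusted exact permutation p = 0.0397), with 4 of 5 DMHF rats below every control rat. Ubqln1, which stabilizes GABA-A receptor subunits, stood at 0.172 (unadjusted limma p = 0.455, exact permutation p = 0.0238) and is named outside the rule, after its values were seen.

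The chloride transporters that set the direction of GABA currents stood at -2.51 millionths (SE 4.64) for Slc12a2, which brings chloride in, and at 0.0240 (SE 0.217) for Slc12a5, which removes it. Markers of GABAergic neurons had 6 of 10 probe sets positive (median t 0.07) and 0 under 0.05 by limma. Its smallest p values were those of the interneuron peptides Vip (-16.3, SE 10.8) and Npy (-1.98, SE 1.51) and to the calcium-binding protein Pvalb (-14.8, SE 15.0). The mean of this marker list, in within-group SD from the control mean, ran from -0.404 to 0.204 over DMHF rats and from -0.148 to 0.171 over control rats.

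**Figure D4:**
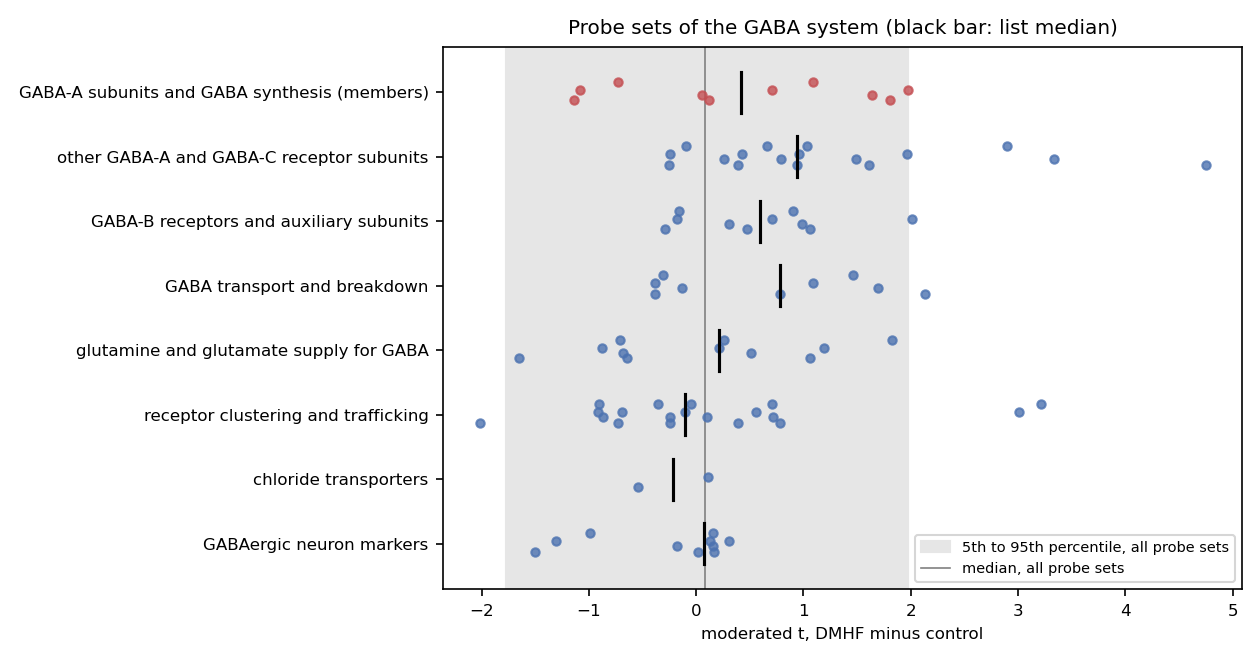
Each point is a probe set, placed by its moderated t for DMHF minus control, with the members in red and the other lists of the GABA system in blue. The grey band spans the 5th to 95th percentile of all probe sets, -1.77 to 1.97, and the black bars are list medians. The 10 member points lie at or inside the edges of the band, and the 3 points farthest right in the list of other subunits are Gabrr2, on 2 probe sets, and Gabre.

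Markers of other cell types and regions, over 14 lists, had 0 probe sets past limma's adjusted threshold. Of all probe sets, 5.48% had an unadjusted limma p under 0.05, 3.23% with a positive difference, and 0.867% had groups that did not overlap. Such a p, always with a positive difference, occurred in 2 of 13 astrocyte and 1 of 10 excitatory neuron probe sets. It also occurred in the ependymal, pituitary and choroid plexus lists below. Striatal markers, from a region whose projection neurons make GABA, had 10 of 12 probe sets with negative differences (median t -0.62) and 0 at an unadjusted p under 0.05. Their mean ran from -0.849 to 0.425 SD over DMHF rats and from -0.575 to 1.09 over control rats. Cerebellar granule cell markers had 5 of 9 positive (median t 0.24), and thalamic markers 8 of 9 (median t 0.78). Ependymal markers had the highest median t of the 14 lists, 2.30, with 5 of 5 positive, 3 of them at an unadjusted p under 0.05, and means of 0.452 to 1.82 SD over DMHF rats and -0.970 to 1.28 over control rats, though 0 of the 5 had means above the array median. Pituitary markers had 6 of 8 positive (median t 1.16), 2 at an unadjusted p under 0.05 and 1 with groups that did not overlap, and 1 of 8 above the array median. Their means ran from 0.201 to 1.45 SD over DMHF rats and from -1.07 to 0.610 over control rats. Choroid plexus markers had 4 of 5 positive (median t 1.29), 1 at an unadjusted p under 0.05, and means of -0.356 to 1.65 SD over DMHF rats and -1.20 to 0.903 over control rats. Whether the makeup of the tissue pieces contributed to the member values was not tested.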

How the data were processed

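The authors deposited processed expression values, 31099 probe sets by 10 arrays, made with R 2.7.2 per the submitters' processing notes. The sources used here do not give the log base, background correction, normalization or summary. The deposited values were taken as log2 from their range, which is an assumption. After 57 control probe sets were left out, 31042 were fitted in R 4.3.3 with limma 3.58.1 (eBayes on lmFit, two-sided test, no covariate, prior degrees of freedom 0.841, Benjamini-Hochberg adjustment over all probe sets, threshold 0.05). The fit was tested on simulated data. An exact permutation test of the difference in means over all assignments of the arrays was run on every probe set. Correlations were computed in Python 3.11.15 with numpy 2.4.6. Groups and replicate numbers are those of the titles, where rats are called biological replicates.

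The platform annotation names a single gene for 20826 probe sets, several for 436 and none here for 9780. The members and lists were chosen with earlier results of these data known. Named genes were all members, up to 3 genes with the smallest p from each GABA system list, and the 3 probe sets most correlated with the first listed probe set of each member, which has the highest mean (symbols starting with LOC or RGD passed over). Start windows are RefSeq's, of build GRCr8. The alternatives tried were a block for the replicate number, a common median of the arrays, quantile normalization, the 15521 brighter probe sets, a trended and robust variance, array weights, the exact test and each array left out. The number of arrays limits the precision. The files held 0 pairs of identical arrays.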

Additional observations from a re-analysis of the deposited data

How the results depend on the processing

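No member probe set passed an adjusted p under 0.05 under any of the 17 alternatives run. The number of all probe sets that passed was 0 with all arrays and ran from 0 to 1 with single arrays left out (1 without DMHF replicate 2). It was 13 after quantile normalization, which left 10076 probe sets to test and, of the members, only Gad2. Member probe sets at an unadjusted limma p under 0.05 were 0 with all arrays and 1 with array weights (Gabrd on 1395269_s_at, 0.0326). With single arrays left out they were 0 to 3 (1 without control replicate 3, 3 without control replicate 5). Of all 31042 probe sets, 1221 higher and 876 lower had such a p with array weights. Without control replicate 3 these were 1055 and 745, and without control replicate 5 they were 970 and 874. Gad2 was -3.97 millionths after quantile normalization, -2.30 with array weights and -8.04 to 9.46 with single arrays left out. Gabra5 was -0.00300 with a common array median and -0.384 to 0.413 with single arrays left out. The cause of these changes was not tested. The other 8 member probe sets kept their sign wherever they could be tested.

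For the lists of the GABA system, alternatives were chosen after seeing the data. Their count of probe sets at an unadjusted p under 0.05 was 5 in all. It was 0 after quantile normalization, which left only part of their probe sets to test, and 2 with a common array median. It was 2 among the brighter probe sets, which are fewer by construction, and 5 to 7 with single arrays left out. Over all probe sets the unadjusted split of 1002 higher and 698 lower became 208 and 333 with a common array median. It was 450 and 154 of the 10076 left after quantile normalization, and 287 and 413 among the 15521 brighter probe sets. With the replicate number as a block (replicate block), 0 probe sets passed and 0 members had an unadjusted p under 0.05, and 7 probe sets of the GABA system lists did. The smallest adjusted limma p of any probe set was 0.172 with the block and 0.698 without it. Over all probe sets 1280 higher and 937 lower had an unadjusted limma p under 0.05 with the block, more than the 1002 and 698 without it. Deviations of same-numbered rats correlated at 0.21, 0.03, 0.27, 0.09 and 0.03, and 2 of these 5 exceed 0.1. The labels name no pairs, so the numbers were not taken as pairs, and whether rats were paired by number cannot be told from them. Of the 5 DMHF rats, 3 correlated best with the control rat of their own number, at 0.21, 0.27 and only 0.09. Whether this count exceeds what unpaired rats would give was not tested. With 5 rats a group, a shift of 1 within-group SD lay inside all 10 member intervals in at least 1 direction.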
